A study of Mus musculus with 6 samples.

Results

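Integrins and laminins form the link between a muscle cell and the basement membrane around it. The subunits described here are the genes whose array accession resolves to an integrin alpha or beta subunit (Itga, Itgb) or to a laminin alpha, beta or gamma chain (Lama, Lamb, Lamc). By that rule 35 genes with 46 probes were found among the 20655 named genes of the array, of which 16 are integrin alpha subunits, 8 are integrin beta subunits and 11 are laminin chains. Membership was set by names and used no measured value, though earlier results of these data were known. Itga10 and Itgae were not matched by accession. The gene Itgb2l and the genes of integrin-binding proteins such as Itgb1bp1 are no members.

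The cells were C2C12, an established line of mouse myoblasts, the precursor cells that differentiate and fuse into multinucleated myotubes. A control siRNA had been given to 3 samples (si-NC), and to the other 3 one that targets lncMGPF, a long noncoding RNA (si-lncMGPF). Every sample was total RNA after 2 days of differentiation, read on a 1-colour Agilent array. The knockdown was by siRNA in 1 cell line, and no label tells if the replicates came from separate cultures. The p-values thus cover the spread among these samples, part of which may be technical. No probe was named lncMGPF, and its own level was not checked here.

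An integrin is a pair of 1 alpha and 1 beta subunit that spans the cell membrane, binds matrix outside and holds the actin cytoskeleton through talin, kindlin and the kinase ILK inside. A laminin is a cross-shaped trimer of an alpha, a beta and a gamma chain that is secreted and polymerises into the basement membrane. In skeletal muscle the main pair is laminin with the alpha2 chain, whose loss causes a congenital muscular dystrophy, and integrin alpha7beta1, its receptor. Myoblasts also use alpha5beta1 on fibronectin, alpha4beta1 on the cell adhesion molecule VCAM1 and alphaV integrins on vitronectin and fibronectin.

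Levels are log2 normalised signals, that is log2 of the processed signal relative to the 75th percentile of the same array, so 0 means a signal equal to that percentile. They are compared between arrays for 1 probe and not between probes. Summed marker signals add the probes of several genes, and these sums too are meant for comparison between arrays. The 75th percentile was 688 to 931 intensity units on the si-NC arrays and 492 to 923 on the si-lncMGPF arrays. By the scan identifiers, slide 1 held all si-NC arrays with si-lncMGPF replicate 1, while slide 2 held replicates 2 and 3 of si-lncMGPF. Slide 2 read its negative control spots higher (37.3 and 42.5 units, against 20.1 to 21.8 on slide 1), and 57.3% and 56.9% of its probes were well above background against 64.1% to 65.3% on slide 1. The array si-lncMGPF replicate 1 correlated at 0.993 to 0.995 with the si-NC arrays and at 0.988 and 0.990 with its own group. Slide thus differs with group in part. For the integrin and laminin genes the change is therefore also given as slide values, first that of si-lncMGPF replicate 1 (slide 1) and then that of replicates 2 and 3 (slide 2), each against the same si-NC arrays.

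The first question was which subunits these differentiating cells express. A probe counted as detected in a group when all 3 of its arrays read it well above background, and 26 of the 35 genes had such a probe in at least 1 group and were tested. Of these, 25 were above background on all 6 arrays. The other was Lamc3, which was above background on the 3 si-NC arrays and on 2 of the 3 si-lncMGPF arrays. It therefore entered through the group where it read higher. Of the 9 genes left out, 6 had no probe above background on any array. These were Itga2, a collagen receptor subunit, Itga8, a nephronectin receptor subunit, Itga9, a tenascin receptor subunit, the leukocyte subunits Itgad and Itgax, and Lama1, the alpha chain of the early embryonic basement membrane. The others were Itga1, a collagen receptor subunit, above background on 2 of 6 arrays, the platelet subunit Itga2b on 1, and Itgb8, an alphaV partner that activates TGF-beta, on 3. No change is given for these 9 genes. Itgal, Itgb6 and Lama3 each had a further probe that was above background on 0 arrays beside 1 that was on all 6.

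**Figure D1:**
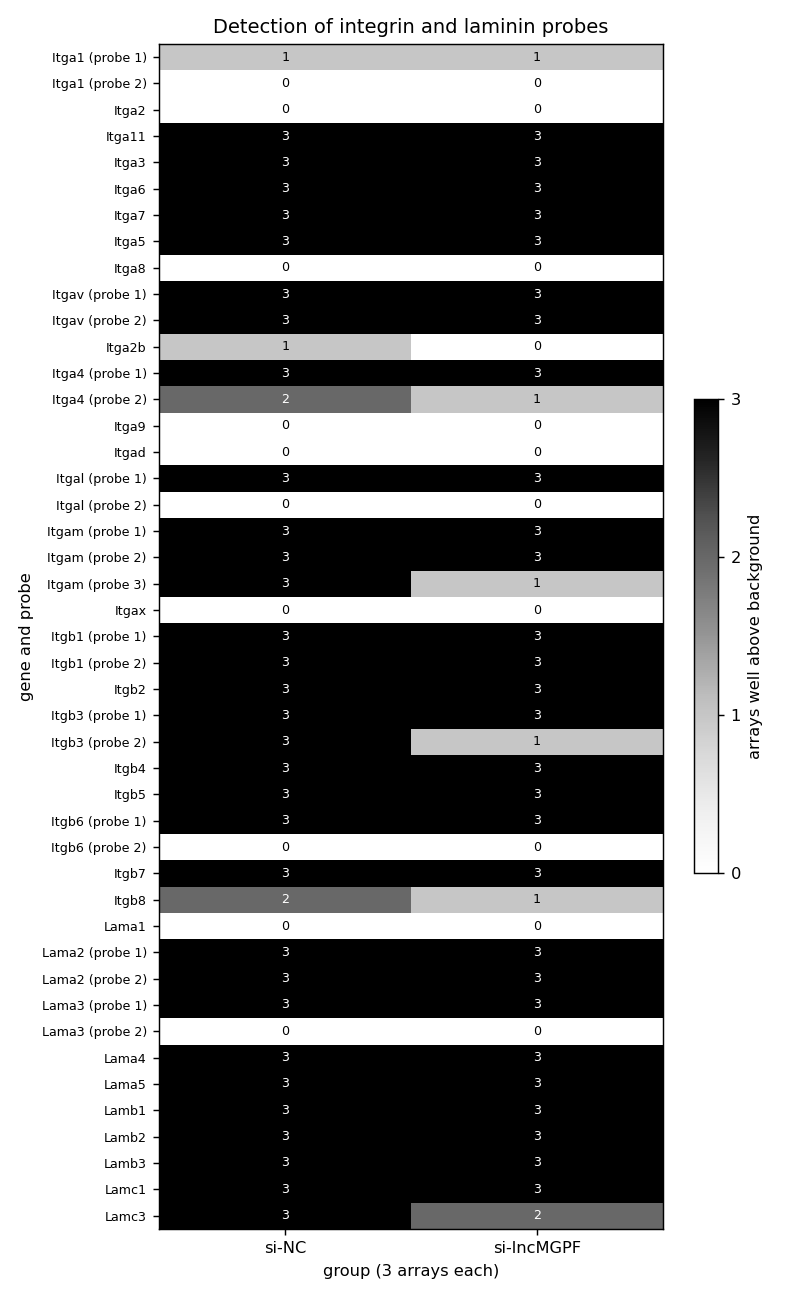
Number of arrays on which each integrin and laminin probe reported by name was well above background, in the 3 si-NC and the 3 si-lncMGPF arrays. Rows are probes ordered by subunit class and columns are the groups. Dark rows (3 and 3) are the probes read on all 6 arrays, and 6 genes, among them Itga9 and Lama1, have 0 in both columns.

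Of 24 integrin pairs known in mammals, 22 had both subunits on the array by name, and 14 had both above background on all 6 arrays. Among them were the laminin receptors alpha3beta1, alpha6beta1, alpha7beta1 and alpha6beta4, the fibronectin receptor alpha5beta1, alpha4beta1, alpha11beta1, and alphaV with beta1, beta3, beta5 and beta6. The leukocyte pairs alphaLbeta2, alphaMbeta2 and alpha4beta7 were among them too. For laminin, 7 of 9 trimers examined had all chains above background. Among these were the alpha2, alpha4 and alpha5 chains, each with gamma1 and either beta1 or beta2. The trimers of alpha1 with gamma1 lacked Lama1. Detection of the parts does not show that a pair or trimer is assembled.

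The tissue label was checked against marker genes. All 10 skeletal muscle markers, among them Myog, Myh3, Ckm and Chrna1, were above background on all 6 arrays, with a summed signal of 129 to 133 times the 75th percentile in si-NC and 117 to 134 in si-lncMGPF. Of 11 leukocyte markers 6 were, while Cd52, Laptm5, Spi1 and Tyrobp were not above background on any array. Of 7 epithelial markers 3 were (Krt5, Krt14 and Esrp1), while Epcam, Krt8 and Krt18 were on no array. For endothelium 2 of 8 markers were detected (Pecam1 and Kdr) and Cdh5, Emcn, Esam, Tek and Tie1 were on no array, and of 6 megakaryocyte markers 0 were above background on all 6 arrays. Of the 6 fibroblast markers, 5 were above background on all 6 arrays. In bulk RNA, fewer cells of a type and less RNA per cell cannot be told apart.

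The second question was which subunits differ when lncMGPF is knocked down. None of the 26 tested genes passed an adjusted p of 0.05 in limma, which called 0.105% of all tested probes and 0.147% of named genes. At an unadjusted p below 0.05 there were 6, and all 6 were lower in si-lncMGPF: the laminin chains Lama2, Lamb3 and Lamc3 and the integrin alpha subunits Itga5, Itga11 and Itgam. Of all named genes 8.14% were lower and 6.04% higher at that level. With the 3 arrays of 1 group entirely below the 3 of the other, 7 of the 26 were lower, against 12.6% of named genes, and 1 was higher, against 9.62%. The 7 were the 6 above and Lamc1. Lamc3, held in both counts, entered the test only through si-NC, the group where it read higher. The median log2 change of the 26 was -0.10, where all named genes had 0.02, and by class it was -0.22 for 9 integrin alpha subunits, 0.15 for 7 integrin beta subunits and -0.13 for 10 laminin chains. Within slide 1 the median of the 26 was -0.17 and on slide 2 -0.10, where all named genes had -0.07 and 0.06. By class, slide 1 and slide 2 gave -0.41 and -0.12 for alpha subunits, -0.09 and 0.14 for beta subunits. Laminin chains had -0.23 and -0.19. Those slide values share their si-NC arrays. After normexp background correction the median of the 26 was 0.01, with 14 positive and 12 negative, where all named genes had 0.06.

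**Figure D2:**
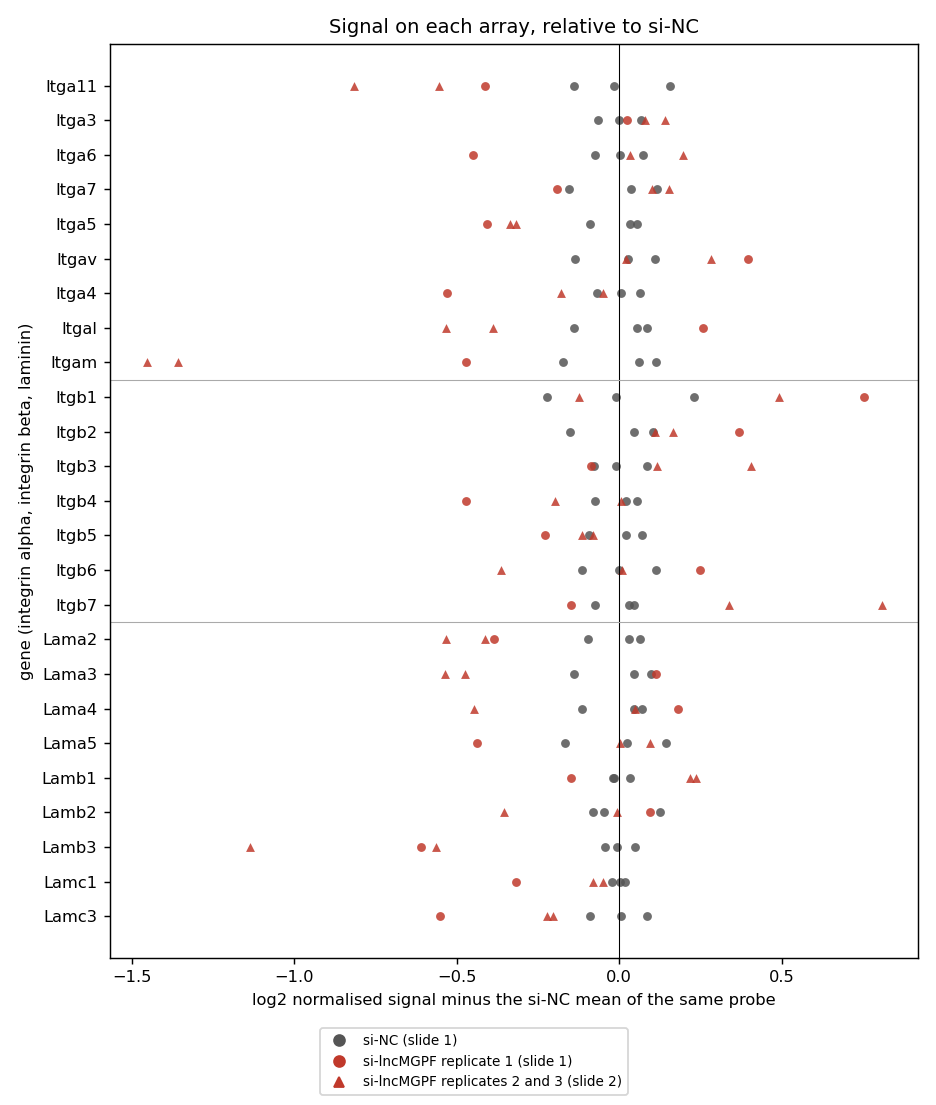
Log2 normalised signal of the tested genes reported by name on each array, minus the mean of the 3 si-NC arrays for the same probe. Grey points are si-NC, red circles si-lncMGPF replicate 1 on slide 1 and red triangles si-lncMGPF replicates 2 and 3 on slide 2. For Itga5, Itga11, Lama2 and Lamb3 every red point lies left of every grey one, while for Itga6 and Itga7 the red circle and triangles fall on opposite sides of 0.

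The promoters of Lama2, Lamb3, Itga5, Itga11 and Itgam are shown because these 5 genes were lower at an unadjusted p below 0.05 and kept that sign under each alternative that moved the value. Itgb1, the shared beta subunit, with a log2 change of 0.37, is set beside them. The letters are the 250 bases before the start of transcription in RefSeq, build GRCm38.p6, read 5′ to 3′ on the strand of the gene, and capitals mark each E-box, the letters CANNTG to which MyoD and other basic helix-loop-helix factors bind. The arrays do not measure these stretches.
Lama2: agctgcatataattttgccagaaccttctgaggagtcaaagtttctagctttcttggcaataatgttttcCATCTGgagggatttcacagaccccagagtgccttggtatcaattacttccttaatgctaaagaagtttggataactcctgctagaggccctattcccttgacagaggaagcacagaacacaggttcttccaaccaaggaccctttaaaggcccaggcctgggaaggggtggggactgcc
Lamb3 first start: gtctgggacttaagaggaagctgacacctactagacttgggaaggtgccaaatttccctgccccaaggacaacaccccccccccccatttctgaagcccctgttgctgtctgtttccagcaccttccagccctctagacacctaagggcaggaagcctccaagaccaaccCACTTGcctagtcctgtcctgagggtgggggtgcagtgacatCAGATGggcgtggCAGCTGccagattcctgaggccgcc
Lamb3 second start: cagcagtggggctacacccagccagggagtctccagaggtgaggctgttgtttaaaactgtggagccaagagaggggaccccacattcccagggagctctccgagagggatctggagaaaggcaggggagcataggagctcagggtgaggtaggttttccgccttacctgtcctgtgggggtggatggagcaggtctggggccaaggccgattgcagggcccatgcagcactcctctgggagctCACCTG
Itga5: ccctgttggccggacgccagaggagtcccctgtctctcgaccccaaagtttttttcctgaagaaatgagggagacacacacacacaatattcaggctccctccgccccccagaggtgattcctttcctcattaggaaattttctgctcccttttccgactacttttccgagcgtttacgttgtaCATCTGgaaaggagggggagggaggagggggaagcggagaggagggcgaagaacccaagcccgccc
Itga11: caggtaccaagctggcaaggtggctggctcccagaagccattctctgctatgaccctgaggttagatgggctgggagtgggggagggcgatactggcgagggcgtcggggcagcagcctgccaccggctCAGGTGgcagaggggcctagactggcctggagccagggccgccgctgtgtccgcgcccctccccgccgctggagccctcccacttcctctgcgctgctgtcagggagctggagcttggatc
Itgam: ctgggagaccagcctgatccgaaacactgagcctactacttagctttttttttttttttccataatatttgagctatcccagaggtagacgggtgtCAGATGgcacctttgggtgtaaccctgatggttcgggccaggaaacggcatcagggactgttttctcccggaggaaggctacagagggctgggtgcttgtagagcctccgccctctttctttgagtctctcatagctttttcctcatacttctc
Itgb1: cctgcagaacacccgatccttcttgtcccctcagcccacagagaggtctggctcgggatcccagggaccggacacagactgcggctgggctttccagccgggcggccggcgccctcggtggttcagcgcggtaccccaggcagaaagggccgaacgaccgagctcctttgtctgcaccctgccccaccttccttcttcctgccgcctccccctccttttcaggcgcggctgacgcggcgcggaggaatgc
They lie at chr10:27616943-27617192, minus strand (Lama2), chr1:193301744-193301993, plus strand and chr1:193301993-193302242, plus strand (Lamb3), chr15:103366792-103367041, minus strand (Itga5), chr9:62677605-62677854, plus strand (Itga11), chr7:128062390-128062639, plus strand (Itgam) and chr8:128685404-128685653, plus strand (Itgb1).

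The Lama2 stretch held 1 E-box, the Lamb3 stretches 3 and 1, and those of Itga5, Itga11 and Itgam 1 each, while that of Itgb1 held 0. An E-box is common: 66.2% of 32851 RefSeq stretches of the same length hold at least 1, and so did 21 of the 25 stretches of 22 integrin and laminin genes in the table outside chromosome 18. Other motifs searched on both strands were GGGCGG, the GC box, in 32.7% of all stretches and 9 of the 25, CATTCC, the MCAT element of TEAD factors, in 12.6% and 2 (Itgb1 and Lamb3), and TGANTCA, the AP-1 site, in 6.75% and 1 (Itgax). The Itga5 stretch held 2 GC boxes, those of Itgam and Itgb1 1 each, and those of Lama2, Lamb3 and Itga11 held 0. GC content was 47.2% for Lama2, 58.8% and 61.2% for Lamb3, 55.6% for Itga5, 68.4% for Itga11, 49.6% for Itgam and 68.0% for Itgb1. A match is a run of letters and not a shown binding site.

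Among laminin chains, Lama2 encodes the alpha2 chain of the muscle basement membrane. Its log2 normalised signal on replicates 1, 2 and 3 was 2.06, 2.02 and 1.90 in si-NC and 1.61, 1.58 and 1.46 in si-lncMGPF, the order used throughout. The groups did not overlap, and the si-lncMGPF arrays of both slides lay below si-NC. The fitted difference was 1.36-fold (log2 change -0.44, SE 0.09, adjusted p = 0.183 by limma, 95% interval -0.67 to -0.22). The slide 1 array gave -0.39 and the slide 2 arrays -0.47. A second probe of the gene had a log2 change of -0.15 (SE 0.09, adjusted p = 0.43). On it the signals were 1.35, 1.36 and 1.32 in si-NC and 1.09, 1.22 and 1.28 in si-lncMGPF, so that the groups were again apart but by a smaller distance. The mean of both probes gave -0.30.

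Lamb3 encodes the beta3 chain, a chain known from the laminin of epithelia. Its log2 normalised signal was 0.63, 0.59 and 0.68 in si-NC and 0.02, 0.07 and -0.50 in si-lncMGPF. All si-lncMGPF arrays were below the si-NC arrays, and replicate 3 was the lowest. The difference was 1.71-fold (log2 change -0.77, SE 0.16, adjusted p = 0.186, limma), where slide 1 gave -0.61 and slide 2 gave -0.85. Lama3, the alpha chain that joins it, had a log2 change of -0.30 (SE 0.19, adjusted p = 0.451), positive on slide 1 (0.11) and negative on slide 2 (-0.50). Of the epithelial markers beside them, Krt5 had -0.57 (adjusted p = 0.376), Krt14 -0.16 and Esrp1 0.70 (adjusted p = 0.264). The summed signal of the 7 epithelial markers was 1.69 to 2.74 times the 75th percentile in si-NC and 2.55 to 3.91 in si-lncMGPF, and its part in the value of Lamb3 was not tested.

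Lamc3 encodes the gamma3 chain. Its probe, near the detection limit, read -4.42, -4.24 and -4.32 on the log2 scale in si-NC and -4.88, -4.53 and -4.55 in si-lncMGPF, without overlap (log2 change -0.33, SE 0.12, adjusted p = 0.282, slide values -0.55 and -0.21, limma). This value turned to 0.09 after normexp background correction, so its direction depends on the background step. Lamc1, the gamma chain shared by most laminins, had 2.61, 2.63 and 2.65 in si-NC, a narrow spread, and 2.31, 2.55 and 2.58 in si-lncMGPF. All 3 si-lncMGPF arrays were lower, the change was small (log2 change -0.15, SE 0.10, adjusted p = 0.481, 95% interval -0.39 to 0.09), and it was -0.32 within slide 1 against -0.07 on slide 2.

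A further 4 chains overlapped between groups. Lama5, the alpha5 chain of the synaptic and embryonic muscle basement membrane, read 4.30, 4.61 and 4.49 in si-NC and 4.03, 4.56 and 4.47 in si-lncMGPF on the log2 scale, where replicate 1 was the lowest array (log2 change -0.11, SE 0.16, adjusted p = 0.745, slide values -0.44 and 0.05). Lama4, the alpha4 chain of vessels and of the neuromuscular synapse, read -2.36, -2.39 and -2.55 and -2.25, -2.88 and -2.39 in the same order (log2 change -0.07, SE 0.17, adjusted p = 0.848, slide values 0.18 and -0.20). Its replicate 2 of si-lncMGPF was the lowest array and replicate 1 the highest. For Lamb1, the beta chain of most extrasynaptic laminin, the log2 normalised signals were 3.996, 3.95 and 3.95 in si-NC and 3.81, 4.18 and 4.20 in si-lncMGPF (log2 change 0.10, SE 0.12, adjusted p = 0.697, slide values -0.15 and 0.23), with the slide 1 array below and the slide 2 arrays above si-NC. Lamb2, the beta chain concentrated at the neuromuscular synapse, had -0.57, -0.78 and -0.75 and -0.61, -1.05 and -0.71 (log2 change -0.09, SE 0.14, adjusted p = 0.766, slide values 0.09 and -0.18). For these 4 chains the 95% interval of the log2 change reached from -0.51 at the lowest to 0.40 at the highest.

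**Figure D3:**
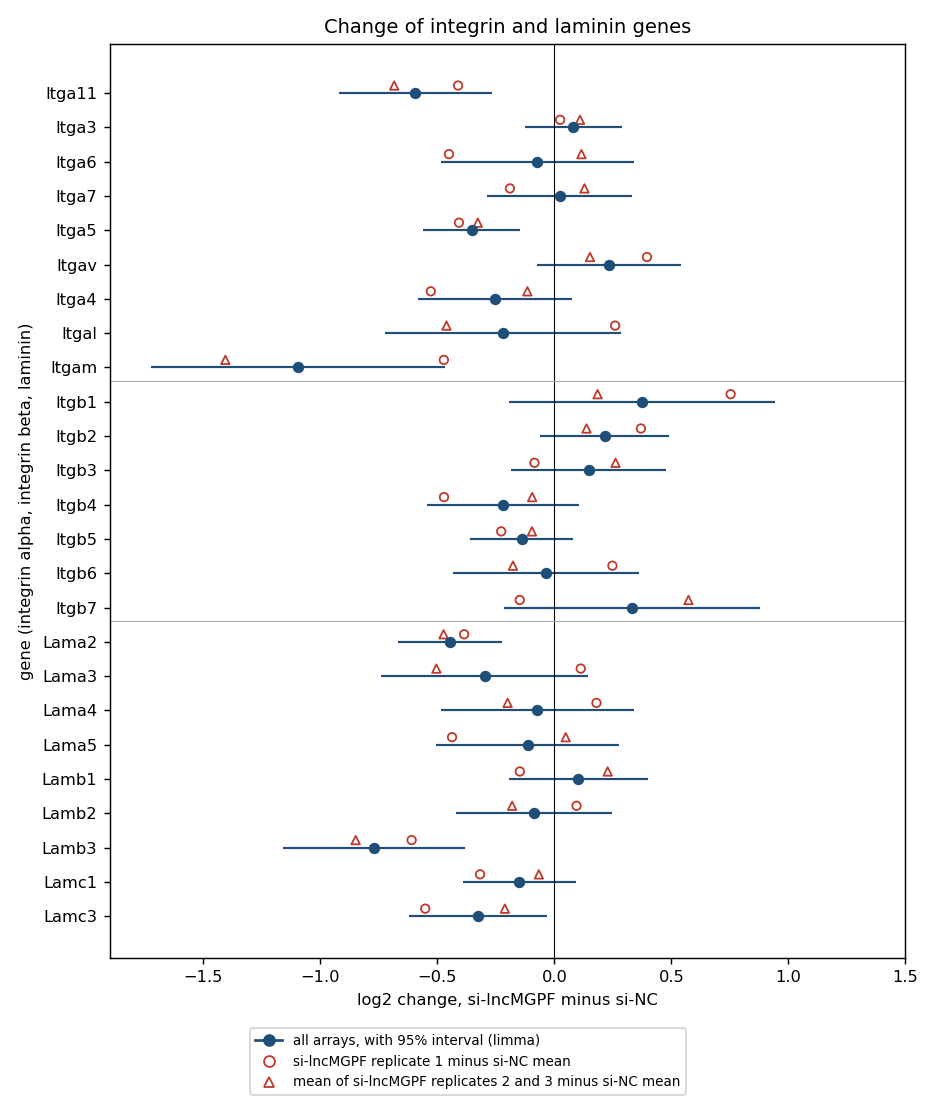
Log2 change of each tested gene reported by name, si-lncMGPF minus si-NC, with its 95% interval from limma over all 6 arrays (blue), and the change of si-lncMGPF replicate 1 (red circle) and of replicates 2 and 3 (red triangle) against the same si-NC mean. The intervals of Itga5, Itga11, Itgam, Lama2, Lamb3 and Lamc3 lie below 0 before adjustment, and genes such as Itga6 and Itga7 have the circle and the triangle on opposite sides of 0.

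Laminin-binding alpha subunits overlapped between the groups. Itga7, the laminin receptor subunit of differentiated muscle, had log2 normalised signals of 6.39, 6.66 and 6.58 in si-NC and 6.35, 6.64 and 6.70 in si-lncMGPF. The groups overlapped, with si-lncMGPF replicate 1 the lowest and replicate 3 the highest of the 6 arrays. The log2 change was 0.02 (SE 0.13, 95% interval -0.29 to 0.33, adjusted p = 0.943, limma), with slide values of -0.19 and 0.13, and -0.13 after quantile normalization. Itga6, a laminin receptor of proliferating myoblasts, read 2.40, 2.55 and 2.48 in si-NC and 2.02, 2.67 and 2.51 in si-lncMGPF (log2 change -0.07, SE 0.17, adjusted p = 0.848). Here too replicate 1 was the lowest array, at -0.45 against the si-NC mean, with the slide 2 arrays at 0.12. Itga3, which pairs with beta1 on laminins with alpha3 or alpha5 chains, had -2.64, -2.57 and -2.70 and -2.61, -2.56 and -2.50 (log2 change 0.08, SE 0.09, adjusted p = 0.655, slide values 0.02 and 0.11), with an SD of 0.07 and 0.06 within the groups (n = 3 each).

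Itga5 encodes the alpha5 subunit of the fibronectin receptor. Its log2 normalised signal was 0.62, 0.77 and 0.75 in si-NC and 0.31, 0.40 and 0.38 in si-lncMGPF. Every si-lncMGPF array lay below every si-NC array, and both slides gave a like value (-0.41 within slide 1 and -0.33 on slide 2). The fitted difference was 1.28-fold (log2 change -0.35, SE 0.09, adjusted p = 0.213, limma, 95% interval -0.56 to -0.15). Over all settings tried it lay between -0.41 and -0.33, the narrowest range among the 6 genes, with adjusted p from 0.00523 to 0.645.

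Itga11 encodes the alpha11 subunit, a receptor of fibrillar collagen known from fibroblasts. On its probe the log2 normalised signals were -3.03, -2.73 and -2.91 in si-NC and -3.30, -3.71 and -3.44 in si-lncMGPF, again without overlap. The change was 1.51-fold (log2 change -0.59, SE 0.14, adjusted p = 0.197, slide values -0.41 and -0.69, limma), and -0.18 after normexp. Fibroblast markers beside it were Lum at -0.54 (adjusted p = 0.191), Dcn at -0.22, Pdgfra at 0.11, Col1a1 at -0.02 and Col1a2 at 0.07. Their summed signal (6 genes) was 113 to 134 times the 75th percentile in si-NC and 109 to 133 in si-lncMGPF, and its part in the value of Itga11 was not tested.

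The other matrix-binding alpha subunits overlapped. Itgav, the alphaV subunit that binds RGD motifs, read 1.01, 0.77 and 0.93 in si-NC and 1.30, 0.93 and 1.19 in si-lncMGPF (log2 change 0.23, SE 0.13, adjusted p = 0.406, slide values 0.40 and 0.15), and its second probe had a log2 change of 0.31. Replicate 1 of si-lncMGPF was the highest array on both probes. Itga4, which binds VCAM1 and fibronectin, read 2.30, 2.36 and 2.23 and 1.77, 2.25 and 2.12 (log2 change -0.25, SE 0.14, adjusted p = 0.4, slide values -0.53 and -0.12), with replicate 1 of si-lncMGPF the lowest array. Its other probe was above background on 3 of 6 arrays and was not tested.

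Beta subunits carry the signalling tail. Itgb1, the partner of most alpha subunits and needed for myoblast fusion in mice, had log2 normalised signals of 2.74, 2.29 and 2.50 in si-NC and 3.27, 2.39 and 3.01 in si-lncMGPF. The si-lncMGPF arrays spread widely, with replicate 1 the highest of the 6 and replicate 2 within the si-NC range. The log2 change was 0.37 (SE 0.24, 95% interval -0.19 to 0.94, adjusted p = 0.46, limma), 0.75 within slide 1 and 0.18 on slide 2. A second probe gave 0.25 (SE 0.25, adjusted p = 0.631), and 0.70 and 0.02 on the slides.

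Of the alphaV partners, Itgb3 read 0.70, 0.86 and 0.77 in si-NC and 0.69, 1.18 and 0.89 in si-lncMGPF (log2 change 0.15, SE 0.14, adjusted p = 0.617, slide values -0.09 and 0.26), with overlap. A second Itgb3 probe, above background on 1 of 3 si-lncMGPF arrays, had a log2 change of 0.36 (adjusted p = 0.291). Itgb5 had -0.14 (adjusted p = 0.474, slide values -0.23 and -0.10) and Itgb6, known from epithelia, -0.04 (adjusted p = 0.928, slide values 0.25 and -0.18). Itgb4, the hemidesmosome subunit that pairs with alpha6, had -0.22 (adjusted p = 0.445), with -0.47 for si-lncMGPF replicate 1 and -0.10 without it. Itgb7, a lymphocyte subunit, had 0.33 (adjusted p = 0.49), at -0.15 for the slide 1 array and 0.57 for those of slide 2. The beta subunits thus ranged from -0.22 to 0.37, and 0 of 7 had an unadjusted p below 0.05 in limma.

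The last group is the leukocyte integrins, whose beta2 pairs mediate adhesion of white blood cells. Itgam, the alphaM subunit of macrophages and neutrophils, had 3 tested probes. On the one that represents the gene the log2 normalised signals were 1.38, 1.61 and 1.66 in si-NC and 1.08, 0.19 and 0.09 in si-lncMGPF. The groups did not overlap, but the slide 2 arrays lay far below the slide 1 array of their own group. The log2 change was -1.10 (SE 0.26, adjusted p = 0.206, limma), -0.47 within slide 1 and -1.41 on slide 2. On the other probes it was -0.25 (adjusted p = 0.367) and -0.40 (adjusted p = 0.401, above background on 1 of 3 si-lncMGPF arrays), with overlap of the groups. The probe at -0.40 entered the test only through si-NC, the group where it read higher. All 3 probes were negative and differed in size, and their mean, which includes the probe at -0.40, gave -0.58. The mean log2 normalised signal in si-NC was 1.55 on the probe that represents the gene. On the other probes it was -3.49 and -4.78. The probes thus did not read the gene alike, and which of them shows its level was not tested.

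**Figure D4:**
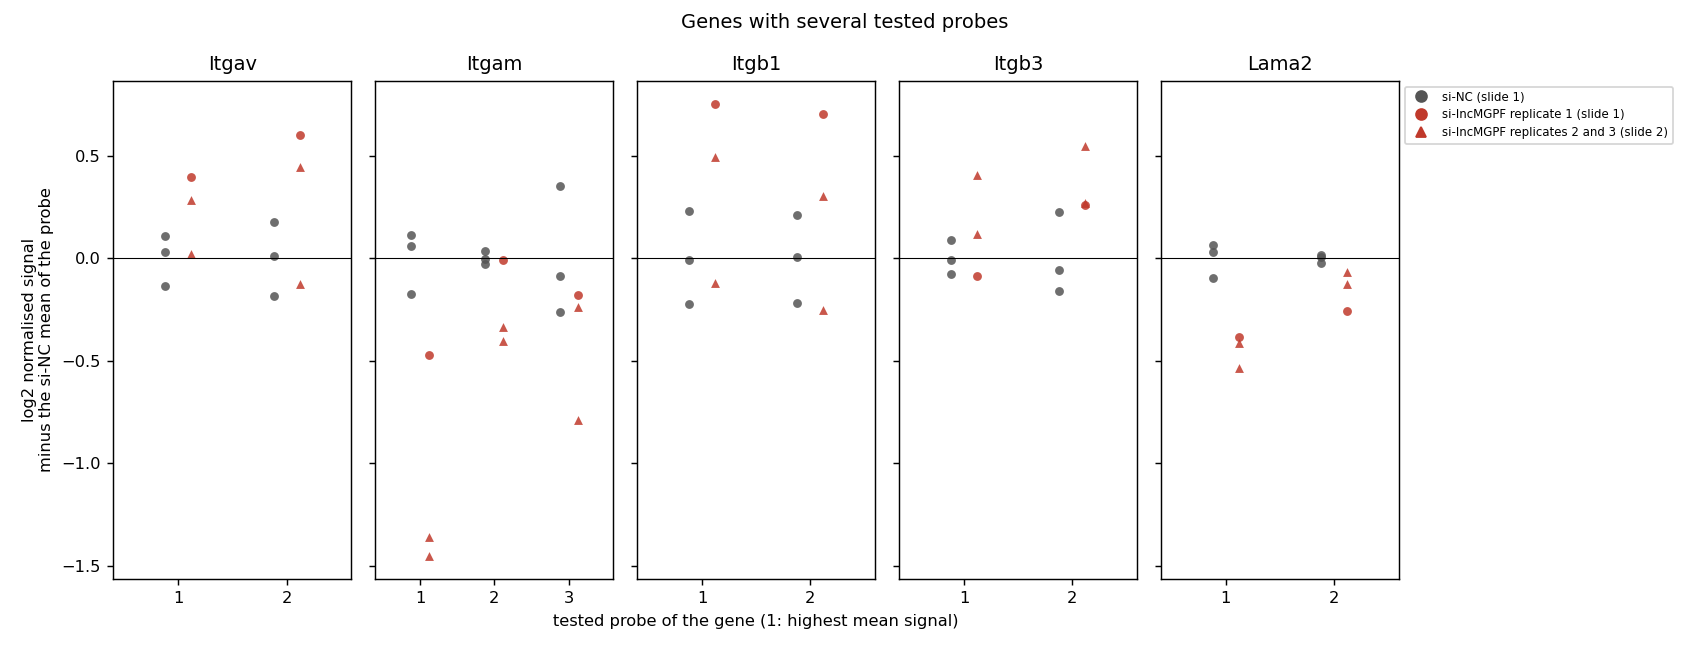
Log2 normalised signal on each array minus the si-NC mean of the same probe, for the 5 genes with more than 1 tested probe; probe 1 represents the gene. Grey points are si-NC, red circles si-lncMGPF replicate 1 and red triangles si-lncMGPF replicates 2 and 3. For Itgb1 si-lncMGPF replicate 1 is the highest array on both probes, while Itgam is at -1.41 on probe 1 and -0.37 on probe 2 in the slide 2 arrays.

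Itgb2, the partner of alphaM, read -3.73, -3.53 and -3.47 in si-NC and -3.21, -3.41 and -3.47 in si-lncMGPF (log2 change 0.21, SE 0.12, adjusted p = 0.395, slide values 0.37 and 0.14), and was the 1 gene of 26 with all si-lncMGPF arrays above si-NC, the nearest arrays of the groups being alike to 2 decimals. Itgal, the alphaL subunit of lymphocytes, had -0.22 (adjusted p = 0.616), 0.26 within slide 1 and -0.46 on slide 2. Itgb2 and Itgal are given here although the rule for genes given in full does not name them, a choice made with their values in view. Beside Itgam, the leukocyte markers Csf1r, Adgre1, Cd14 and Ptprc had log2 changes of -0.08, 0.14, 0.20 and -0.13, and Fcer1g 0.05. Cd53 had 1.16 (adjusted p = 0.141), and Coro1a -0.26 (adjusted p = 0.268). The groups did not overlap for Cd53, Cd14 and Adgre1, which read higher in si-lncMGPF, and for Coro1a, which read lower. The summed signal of the 11 leukocyte markers on the array was 1.3 to 1.41 times the 75th percentile in si-NC and 1.39 to 1.63 in si-lncMGPF, and its part in the value of Itgam was not tested. In the RefSeq gene table (GRCm38.p6) Itgam, Itgax and Itgad follow each other with 0 protein-coding genes between, and the other members of that run were not above background.

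The partners of these subunits were read from 3 lists of other pathway genes, and their counts stand beside the 8.14% of all named genes that were lower and the 6.04% that were higher at an unadjusted p below 0.05. Of the adaptors that tie integrins to actin and to signalling, 35 of 37 genes on the array were tested and 0 passed in limma (median log2 change -0.05; an unadjusted p below 0.05 in 1 higher and 6 lower genes of 35). The 5 with the smallest p were all lower. They were Csk, the kinase that restrains Src (-0.45, adjusted p = 0.233), Tns2, a tensin (-0.26), Kank1, a talin-binding protein (-0.22, and -0.00044 after normexp), Lims2, a partner of ILK (-0.35), and Bcar1, the scaffold p130Cas (-0.28). Among matrix ligands and basement membrane proteins 35 of 41 were tested, 0 passed, and an unadjusted p below 0.05 was reached by 1 higher and 6 lower genes of 35, beside 6.04% and 8.14% of named genes (median -0.04). Frem1, a basement membrane protein of the Fraser complex, had -0.88 (SE 0.11, adjusted p = 0.0874), Vtn, vitronectin, -0.65 (adjusted p = 0.113, above background on 1 of 3 si-lncMGPF arrays), Ccn2 -0.39, and the laminin-binding Nid2, nidogen 2, -0.46. Spp1, osteopontin, had 0.28. Vtn is counted among the 6 lower genes, though it entered the test only through si-NC, where it read higher. After normexp Frem1 was at -0.17 and Vtn at -0.02, and with slide as a random block Frem1 passed (adjusted p = 0.0498).

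Of other laminin receptors and membrane partners of integrins, all 19 on the array were tested and 0 passed (median 0.09; unadjusted p below 0.05 in 0 higher and 3 lower genes of 19, beside 6.04% and 8.14% of named genes). Bcam, a receptor of the laminin alpha5 chain, had -0.40 (adjusted p = 0.192) on a probe above background on 2 of 3 si-lncMGPF arrays, and 0.10 after normexp. Bcam is counted among the 3 lower genes, though it entered the test only through si-NC, where it read higher. Cspg4, the proteoglycan NG2, had -0.25 and the syndecan Sdc3 -0.31. Slc3a2, the CD98 heavy chain, which binds beta subunits, had 0.18 and Cd47 0.15. Dag1, dystroglycan, the other main laminin receptor of muscle, had -0.13 (SE 0.09, adjusted p = 0.459) and was chosen by name after the values were seen.

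How far the 6 lower genes hold under other processing differed between them. Itga5, Itga11, Itgam, Lama2 and Lamb3 were negative under all 19 alternatives, and Lamc3 under 17 of 18. Filters, the variance model, the replicate block and the series table leave a log2 change as it is, and slide as a block equals the slide 1 arrays only. Other settings gave 12 distinct other values each for Itga5, Itga11 and Lamb3, 13 each for Itgam and Lama2, all negative, and 12 for Lamc3, of which 11 were negative. When si-lncMGPF replicate 1 is left out, slide and group coincide. Then Itga5, Itga11, Itgal, Itgam, Lama2, Lama3 and Lamb3 passed (7 of 26 genes, all lower), where 14.7% of all named genes passed, and there the knockdown cannot be told apart from the slide. With array weights 11 of 26 passed, of which Itgb1 (0.45), Itgb7 (0.34) and Lamb1 (0.23) were higher and the others lower. That fit gave si-NC replicate 3 a weight of 9.39 and si-lncMGPF replicate 1 a weight of 0.125. It called 10149 of all 24661 tested probes. Under each other alternative 0 of the tested integrin and laminin genes passed.

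**Figure D5:**
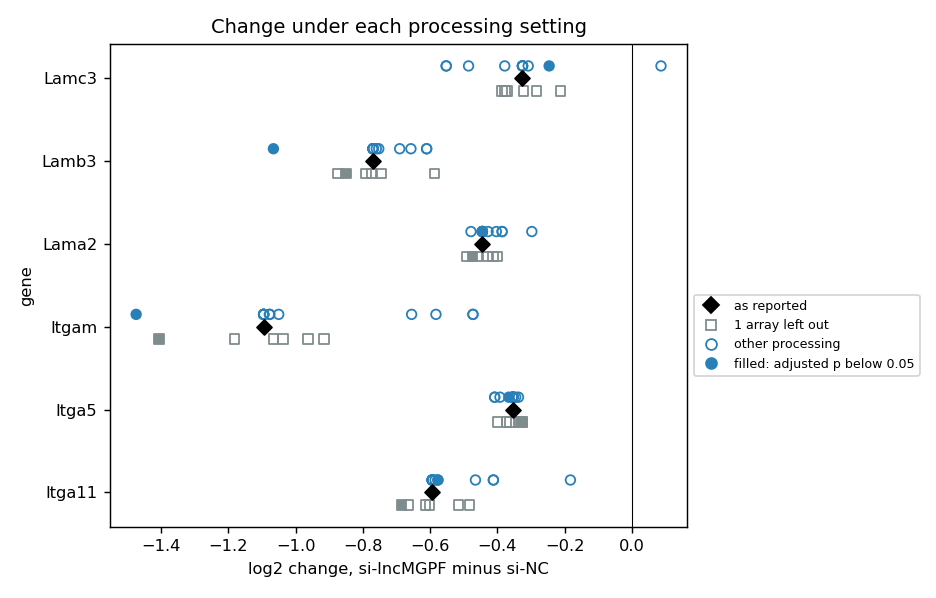
Log2 change of the 6 genes with an unadjusted p below 0.05 under every processing setting: as reported (black diamond), with 1 array left out (grey squares) and under other processing (blue circles); filled symbols have an adjusted p below 0.05. Itga5 lies between -0.41 and -0.33, Itgam between -1.47 and -0.47, and Lamc3 crosses 0.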

How the data were processed

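Groups follow the siRNA named in the labels of the 6 samples. The deposited intensity values had been background-subtracted and detrended by Feature Extraction 11.0.1.1, per the file headers, and the authors' series table repeats them at 44397 of 44397 spots on each array. No source used here describes the authors' tests.

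Each array's processed signal was put on the log2 scale and centred on its 75th percentile. Outlier spots were left out (117 to 134 per array), and spots of 1 probe were averaged. A probe, of 39429, entered the test if at least 0.5 of its spots were well above background on all arrays of either group (24661 probes). Accessions without version were looked up in a RefSeq table (GRCm38.p6), which named 27228 probes. The array's design is of another build, so the table gave names, gene order and promoter letters only. The tested probe with the highest mean signal represented a gene. The test was limma 3.58.1 (lmFit and eBayes without covariates, R 4.3.3), with Benjamini-Hochberg adjustment over all tested probes at 0.05. It was also run on simulated data with independent noise and no slide effect, which cannot show how it behaves when slide and group overlap. Fold values are ratios taken from log2 changes.

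All 6 values are given for muscle laminins and their receptors fixed by name, for genes with an unadjusted p below 0.05 and for genes with a probe above background in 1 group alone. Of each pathway list the 5 genes with the smallest p are named. Genes, lists and rules were chosen with earlier results of these data known. Alternatives covered the scaling (quantile, median), the background (normexp, offset 50, on median spot signals), the filter, the variance model, array weights, blocks for slide and replicate number, the series table, the mean over a gene's probes, and each array left out. Counts in the 3 pathway lists under these alternatives were added after seeing the data. Promoter letters were used for 22 of the 35 genes. Among those without are Itga6, Itga7, Itgad, Itgal, Itgb2, Itgb3, Itgb4, Lama1, Lama4, Lamc1 and Lamc3, and genes of chromosome 18 were left out. The values of 1 member are not reported here, though it stays in the counts and medians.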

Additional observations from a re-analysis of the deposited data

How the results depend on the processing

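Of the 26 tested genes 13 kept the sign of their log2 change under all settings and 13 did not. Limma called 26 probes as reported, 6 with quantile normalization, 8 with normexp, 0 with no filter (5266 at an unadjusted p below 0.05), 10 with slide as a block, 1 with the slide 1 arrays only, 10149 with array weights, and 0 to 4105 with 1 array left out. Integrin and laminin genes called were 0 (6 at an unadjusted p below 0.05), 11 with array weights and 0 to 7 with 1 array left out, where 7 came without si-lncMGPF replicate 1. Their median log2 change was -0.10, and 0.011 with normexp. Adaptors called were 0, with 12 under array weights and 0 to 3 with 1 array left out, matrix ligands 0, with 13, 1 with slide as a random block and 0 to 7, and membrane partners 0, with 9 and 0 to 3. The cause of these moves was not tested, except that a fit without si-lncMGPF replicate 1 compares slides as well as groups. Log2 changes that turned sign were, with slide as a block and likewise with the slide 1 arrays only, Itga7 -0.19, Itgal 0.26, Itgb3 -0.086, Itgb6 0.25, Itgb7 -0.15, Lama3 0.11, Lama4 0.18, Lamb1 -0.15, Lamb2 0.094; with slide as a random block Itga7 -0.13, Itgal 0.12, Itgb3 -0.018, Itgb6 0.16, Itgb7 -0.0076, Lama4 0.11, Lamb1 -0.075, Lamb2 0.041; with normexp Itgal 0.11, Itgb6 0.12, Lama4 0.077, Lamb2 0.015, Lamc3 0.086; with quantile normalization Itga7 -0.13; and with array weights Itga6 0.022, Lama4 0.070. With 1 array left out the ranges that crossed 0 were Itga6 -0.21 to 0.12, Itga7 -0.055 to 0.13, Itgb6 -0.18 to 0.13, Lama4 -0.20 to 0.11, Lama5 -0.22 to 0.048, Lamb2 -0.18 to 0.044. With the replicate number as a block limma called 0 probes (4430 at an unadjusted p below 0.05) and 0 integrin or laminin genes. The deviations of same-numbered arrays correlated at 0.29, 0.45 and -0.07. Those of si-NC replicate 1 and si-lncMGPF replicate 2 correlated at -0.41, and those of si-NC replicate 2 and si-lncMGPF replicate 1 at -0.35. Replicates 1 and 2 thus correlated best with their own number. Replicate 3 of neither group did, so the numbers were not taken as pairs. Slide 2 read dim probes over a higher background, which limits Lamc3, the third Itgam probe and the second Itgb3 probe. It also limits Itga11, Itgal, Itgb2 and the second Itgam probe, whose processed signals on the slide 2 arrays were 29.1 to 54.5 units. With normexp Itga11 went from -0.59 to -0.18.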
